A study of Mus musculus with 8 samples.

Results

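The report concerns 10 transcription factors that build and maintain heart muscle: the GATA factors Gata4 and Gata6, the homeobox factor Nkx2-5, the T-box factors Tbx5 and Tbx20, the MADS-box factors Mef2a, Mef2c, Mef2d and Srf, and the basic helix-loop-helix factor Hand2. They were taken by name from a table of read counts for 56748 genes, and all 10 were among the 16780 genes with enough reads to be tested. The series holds 8 whole hearts of C56BL mice aged 3 to 4 months, taken 7 days after transverse aortic constriction, a banding of the aorta that puts the heart under pressure overload. In the control group, ACRE (n = 4), mice carried Cre recombinase under control of the alpha myosin heavy chain (aMHC) promoter, active in heart muscle cells. In the other group, CMS7KO (n = 4), the same promoter drove Cre to excise Smad7, an inhibitor of TGF-beta signalling, from heart muscle cells. All 8 hearts thus shared the Cre driver and the banding, and the remaining cell types of the CMS7KO hearts kept the gene. Hearts 1 and 2 of each group were labelled male and hearts 3 and 4 female, and hearts without constriction were not analysed here.

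These factors form an interlocking network. Gata4, Nkx2-5 and Tbx5 bind one another and act together on promoters of muscle and natriuretic peptide genes, while Tbx20 acts with them as activator and repressor. Srf and the Mef2 proteins share the MADS domain, bind A and T rich elements in contractile and metabolic genes, and carry stress signals to the genome in the loaded heart. Hand2 is best known for building the right ventricle of the embryo, and in the adult it remains active in several cardiac cell types.

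Libraries held 12920435 to 17199600 reads, and levels are given as CPM, reads scaled to a common library total, after TMM scaling, a correction for unequal library composition. The ACRE libraries stood apart from each other. On the first principal component of all tested genes, which held 37.5% of the variance, the scores of ACRE 2 and 4 were 63.6 and 76.4, those of the remaining libraries -48.0 to -11.3. On the second, which held 17.4%, ACRE 1 and 3 lay at -48.2 and -47.8, and all others at 3.62 to 26.9. Smad7 measured 34.6, 34.5, 32.7 and 23.9 CPM across ACRE hearts 1 to 4, against 30.9, 41.9, 38.9 and 43.1 CPM across CMS7KO hearts 1 to 4, with a log2 fold change (CMS7KO minus ACRE throughout) of 0.30 (edgeR adjusted p = 0.415). Counts over the whole gene in whole hearts therefore do not check the genotype labels. Xist, transcribed from the inactive X chromosome, was at 362 CPM in ACRE 4 and 837 CPM in CMS7KO 4 but at no more than 0.652 CPM in the other 6 libraries, so the female label of ACRE 3 and CMS7KO 3 did not match it. Ddx3y, a gene of the Y chromosome, was at 89.1 CPM in ACRE 3 and 84.2 CPM in CMS7KO 3, and at 0 CPM in ACRE 4 and CMS7KO 4.

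Markers of heart muscle cells were abundant in every library, Myh6 between 9574 and 44054 CPM and Tnnt2 between 5727 and 7442 CPM. Of 10 atrial markers, Sln had at most 1 read and Bmp10 at most 2 reads in any library, and Myl7 was at 0 to 1.64 CPM and Myl4 at 2.41 to 6.67 CPM, although the tissue is labelled whole heart. Other genes of the list, which ventricles and other cells also express, were higher, with Nppa at 203 to 1514 CPM and Dkk3, Stard10 and Nr2f2 between 10.4 and 39.9 CPM. Of its 8 tested genes, 6 fold changes were above 0 and 2 below (median 0.54), and none passed by edgeR. At an unadjusted p under 0.05 by edgeR there were 3, beside 15.3% of all tested genes. The DESeq2 test called 2 of them higher, beside 2.88% of all genes. All CMS7KO hearts lay above all ACRE hearts for 2 and below for 0, beside 9.59% of all genes in either direction. The summed level was 286 to 759 CPM in ACRE and 587 to 1629 CPM in CMS7KO hearts, and without Nppa 69.8 to 118 and 86.0 to 116 CPM. Tbx5 is known for its high level in the atria, and the part of atrial tissue in its values was not tested.

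Promoter sequences from RefSeq (build GRCm38.p6, 250 bases before to 50 bases after the start) were at hand for 7 of the 10 members. Those of Srf, Mef2a and Tbx20 are shown because these 3 transcripts moved closely together across the hearts, and because the first 2 hold elements recognised by their own protein family. Capitals mark the matches to the motifs searched on both strands: GATAA for GATA factors, TNAAGTG for Nkx2-5, GGTGTG for T-box factors, the CArG box for Srf and the MEF2 site for Mef2 proteins.
Srf, chr17:46556113-46556412, minus strand: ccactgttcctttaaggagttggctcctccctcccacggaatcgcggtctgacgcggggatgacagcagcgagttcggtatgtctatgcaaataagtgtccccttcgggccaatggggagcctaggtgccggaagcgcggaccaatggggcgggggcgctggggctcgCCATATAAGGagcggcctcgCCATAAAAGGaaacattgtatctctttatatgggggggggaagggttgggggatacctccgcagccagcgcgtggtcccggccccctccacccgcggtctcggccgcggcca
Mef2a, chr7:67372809-67373108, minus strand: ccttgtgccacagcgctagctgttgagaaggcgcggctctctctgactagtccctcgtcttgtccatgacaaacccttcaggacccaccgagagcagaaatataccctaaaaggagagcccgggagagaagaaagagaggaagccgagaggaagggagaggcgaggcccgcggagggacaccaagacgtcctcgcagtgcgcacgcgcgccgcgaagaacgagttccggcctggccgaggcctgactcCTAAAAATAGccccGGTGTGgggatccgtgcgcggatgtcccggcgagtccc
Tbx20, chr9:24774254-24774553, minus strand: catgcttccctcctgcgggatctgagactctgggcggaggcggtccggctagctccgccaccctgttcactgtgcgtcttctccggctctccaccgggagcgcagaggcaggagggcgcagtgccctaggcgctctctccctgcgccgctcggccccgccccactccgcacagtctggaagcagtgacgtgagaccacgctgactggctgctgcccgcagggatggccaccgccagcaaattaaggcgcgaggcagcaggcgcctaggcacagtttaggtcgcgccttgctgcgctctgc
The Srf promoter held 2 CArG boxes, beginning at positions -82 and -62 from the start. A CArG box was present in 1.63% of the 32851 mouse promoters of the same table. The Mef2a promoter held a MEF2 site that begins at position -2, an element found in 0.557% of all promoters, and a GGTGTG at position 12, found in 19.0%. No match overlapped another, and the Tbx20 window held none of the 5 motifs. The Hand2 promoter held 2 matches to GATAA, at positions -214 and -172, a motif present in 25.4% of promoters, and the windows of Nkx2-5 and Mef2d held none of the 5. Of 3 listed starts of Mef2c, the second had 2 matches to GATAA and 1 to GGTGTG in its window. TNAAGTG was in none of the members' windows and in 11.5% of all.

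Positions below are those of the count table. Its gene starts equal those of the GENCODE M21 annotation of GRCm38 for only 1485 of 52073 shared identifiers (2.85%), and for 1 of the 10 members, so its build is not named. To set the genes beside each other, levels were divided by the gene length the table lists. On this scale of CPM per kilobase, Mef2d was the most abundant factor, with a mean of 33.9 over 8 libraries (range 27.6 to 40.0), ranking 17 among the 1021 tested genes that the table assigns to a transcription factor family. Nkx2-5 followed at 28.3 (17.7 to 40.3), Srf at 27.1 (19.2 to 45.3) and Gata4 at 24.4 (11.1 to 46.3), ranks 28, 31 and 35. These 4 levels were not separable, since the range of each overlapped that of the next and Nkx2-5 exceeded Srf in only 4 of 8 libraries. A middle tier held Hand2 at 12.7 (10.8 to 16.8), Mef2a at 12.7 (9.64 to 19.0), Tbx20 at 8.72 (4.12 to 17.4) and Gata6 at 6.55 (4.29 to 11.4). Gata4 was above Hand2 in all 8 libraries and Mef2a above Tbx20 in all 8, while Hand2 was above Mef2a in 5. At the low end, Mef2c was at 5.22 (4.05 to 7.01) and Tbx5 at 2.92 (1.19 to 6.55), with Mef2c above Tbx5 in all 8 libraries. The ranges over the 8 libraries overlapped for every neighbouring pair in this order.

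**Figure D1:**
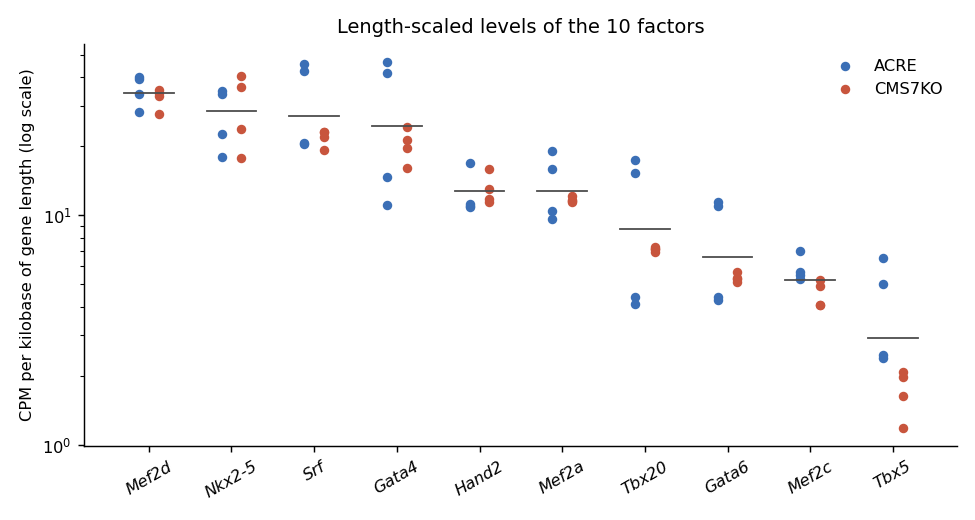
Level of each factor in CPM per kilobase of gene length on a log axis, 1 point per library, with ACRE hearts in blue and CMS7KO hearts in red; the line is the mean of all 8. Mef2d (mean 33.9) stands highest and Tbx5 (mean 2.92) lowest, and the ACRE points of several factors split into a high and a low set.

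The question the design puts to these genes is whether their levels differ between CMS7KO and ACRE hearts under load. None of the 10 passed the test for genotype by edgeR's quasi-likelihood test with Benjamini-Hochberg adjustment (0 of 10), against 6 of 16780 genes (0.0358%). Tbx5 was the only member at an unadjusted p under 0.05, 1 of 10 beside 15.3% of all tested genes, a share near the background. For 2 members, Tbx5 and Mef2c, all CMS7KO hearts lay below all ACRE hearts, against 4.18% of all genes in this direction and 9.59% in either. The members had a median log2 fold change of -0.42, with 2 above 0 and 8 below, beside a median of -0.01 over all genes. Fold changes of 12 of 12 heart muscle markers were below 0 (median -0.38) and those of 10 of 10 fibroblast markers above 0 (median 0.59). No gene of either list passed by edgeR, and DESeq2 called 3 fibroblast markers higher and 0 muscle markers, beside 2.88% of all genes. By edgeR without ACRE 2 and 4 the muscle markers were 7 above 0 and 5 below (median 0.03), and the fibroblast markers again 10 above (median 0.59). Without ACRE 1 and 3 the muscle markers were 1 above and 11 below (median -0.80), and the fibroblast markers 10 above (median 0.66). Both of these fits were added after seeing the data. Their summed levels were 45391 to 88258 CPM in ACRE and 34937 to 51825 CPM in CMS7KO hearts for muscle, and 3418 to 3937 CPM and 4246 to 7427 CPM for fibroblasts. The part of either in the members' values was not tested, and in whole hearts fewer cells of a type and less RNA per cell cannot be told apart. For the sex label, 0 members passed and 0% of all genes did (207 genes at an unadjusted p under 0.05, and no member). A test of whether the genotype difference itself differed between the sex labels likewise gave 0 members and 0% of genes by edgeR (178 genes at an unadjusted p under 0.05, and no member), with 0 genes by limma voom and 3 by DESeq2. Both tests are of the label, which Xist and Ddx3y did not match for ACRE 3 and CMS7KO 3. They cannot decide whether sex had an effect.

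Gata4 and Gata6 are zinc finger proteins that bind the same element, and Gata4 is a main carrier of the hypertrophic response. Gata4 (ENSMUSG00000021944, chromosome 14, 63436371 to 63509141, minus strand) measured 57.2, 162, 43.5 and 181 CPM across ACRE hearts 1 to 4, against 83.2, 63.0, 76.7 and 94.8 CPM across CMS7KO hearts 1 to 4. Gata6 (ENSMUSG00000005836, chromosome 18, 11052064 to 11085635, plus strand) measured 28.7, 71.2, 27.9 and 74.0 CPM across ACRE hearts 1 to 4, against 34.4, 33.2, 34.7 and 37.0 CPM across CMS7KO hearts 1 to 4. For both genes ACRE 2 and 4 were the highest of all libraries and ACRE 1 and 3 the lowest, and every CMS7KO heart lay in between. The means of Gata4 were 111 ± 70.5 CPM for ACRE and 79.4 ± 13.3 CPM for CMS7KO hearts (SD, n = 4 each), with a log2 fold change of -0.48 (SE 0.43, adjusted p = 0.583 by edgeR). Those of Gata6 were 50.5 ± 25.6 and 34.8 ± 1.58 CPM, with a log2 fold change of -0.53 (SE 0.33, adjusted p = 0.435). Neither difference exceeded the spread between ACRE hearts. Gata6 shares its locus with Gata6os on the other strand, which had 1167 reads in all against 4924 for Gata6. The sources used here do not say whether counting used the strand, so reads of genes that overlap cannot be told apart.

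Nkx2-5, the homeobox factor that marks heart precursors and keeps working in adult muscle (ENSMUSG00000015579, chromosome 17, 27057638 to 27063983, minus strand), was at 38.8, 58.1, 30.8 and 59.5 CPM in ACRE 1 to 4. In CMS7KO 1 to 4 it was at 69.2, 30.5, 40.6 and 61.9 CPM. Here the CMS7KO hearts spread as widely as the controls, with CMS7KO 1 the highest of all and CMS7KO 2 the lowest. Means were 46.8 ± 14.2 and 50.6 ± 18.1 CPM (SD, n = 4 each), and the log2 fold change was 0.11 (SE 0.30, adjusted p = 0.877 by edgeR).

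Tbx5, a T-box activator needed for chamber identity and conduction, had the lowest level of the 10 and the largest difference between the genotypes among them. The gene (ENSMUSG00000018263, chromosome 5, 119970733 to 120023284, plus strand) measured 11.2, 23.6, 11.6 and 30.6 CPM across ACRE hearts 1 to 4, against 9.71, 5.55, 7.65 and 9.27 CPM across CMS7KO hearts 1 to 4, from 107 to 352 reads per library. Every CMS7KO heart lay below every ACRE heart. The log2 fold change was -1.25 (SE 0.36) between means of 19.2 ± 9.53 and 8.04 ± 1.88 CPM (SD, n = 4 each). Its unadjusted p of 0.00595 ranked 431 among 16780 genes, and it missed the threshold of 0.05 after adjustment over all of them (edgeR adjusted p = 0.232). DESeq2 called it (log2 fold change -1.26, adjusted p = 0.0347) among 2.88% of all genes, as did edgeR without a filter on low counts (-1.26, adjusted p = 5.23e-05) among 4.21%. The unfiltered fit had infinite median prior degrees of freedom, against 4.50. It thus leaned on the trend over genes rather than on each gene's own spread (SE 0.25 for Tbx5). By contrast limma voom did not call Tbx5 (-1.13, adjusted p = 0.298). The fold change stayed below 0 in all 20 alternative fits, between -1.75 and -0.51. The value of -0.51 (adjusted p = 0.464) came from the fit without ACRE 2 and 4. In the hearts labelled male and female the log2 fold changes were -1.19 and -1.31.

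Tbx20, the other T-box factor of adult heart muscle, showed another arrangement of the 8 hearts. The gene (ENSMUSG00000031965, chromosome 9, 24629434 to 24685599, minus strand) measured 49.4, 184, 53.1 and 209 CPM across ACRE hearts 1 to 4, against 87.3, 86.0, 83.2 and 85.2 CPM across CMS7KO hearts 1 to 4. The CMS7KO hearts were nearly level, with a coefficient of variation of 2.03%, while the ACRE hearts split around them with a coefficient of 68.2%. The 5th percentile in CMS7KO hearts was 4.54% over all tested genes of mean CPM 5 or more. Mef2a, at 2.63%, was also below it, and Gata6, at 4.54%, was level with it. At the 1140 to 1657 Tbx20 reads of these libraries, counting error alone is no smaller than 2.03%. How even the hearts themselves were is therefore not resolved. Means were 124 ± 84.4 and 85.4 ± 1.74 CPM (SD, n = 4 each), and the log2 fold change was -0.53 (SE 0.45, adjusted p = 0.567 by edgeR).

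**Figure D2:**
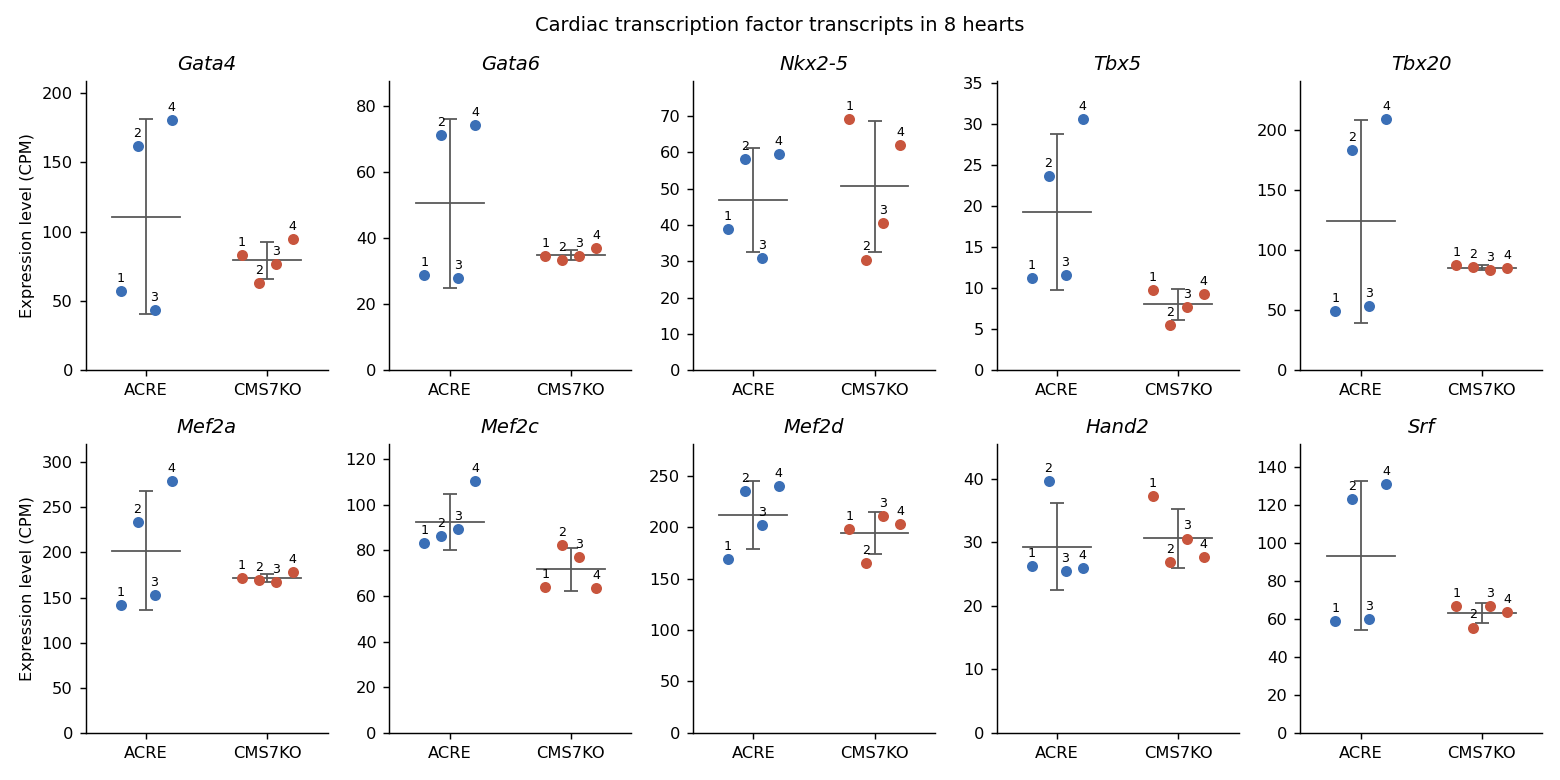
Level in CPM of each of the 10 factors in ACRE (blue) and CMS7KO (red) hearts, 1 numbered point per library, with the mean and SD of each group (n = 4). ACRE 2 and 4 stand above all other hearts for Gata4, Gata6, Tbx5, Tbx20, Mef2a, Mef2d and Srf, and for Tbx5 and Mef2c all CMS7KO hearts lie below all ACRE hearts.

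Mef2a, Mef2c and Mef2d are MADS-box activators of contractile and metabolic genes that are held back by class IIa histone deacetylases. Mef2a (ENSMUSG00000030557, chromosome 7, 66880911 to 67022606, minus strand) measured 142, 234, 153 and 279 CPM across ACRE hearts 1 to 4, against 172, 169, 167 and 178 CPM across CMS7KO hearts 1 to 4, which placed all CMS7KO hearts between the ACRE hearts as for Gata4, Gata6 and Tbx20. Its means were 202 ± 65.8 and 172 ± 4.51 CPM (SD, n = 4 each), with a log2 fold change of -0.23 (SE 0.24, adjusted p = 0.640 by edgeR). Mef2d (ENSMUSG00000001419, chromosome 3, 88049679 to 88079393, plus strand) measured 169, 235, 202 and 239.6 CPM across ACRE hearts 1 to 4, against 198, 165, 210.5 and 203 CPM across CMS7KO hearts 1 to 4. Its genotype groups overlapped widely, with means of 212 ± 32.9 and 194 ± 20.1 CPM and a log2 fold change of -0.12 (SE 0.18, adjusted p = 0.749).

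Mef2c, the Mef2 protein that the early heart depends on (ENSMUSG00000005583, chromosome 13, 83652153 to 83815199, plus strand), measured 83.3, 86.2, 89.4 and 110.2 CPM across ACRE hearts 1 to 4, against 64.0, 82.4, 77.0 and 63.7 CPM across CMS7KO hearts 1 to 4. It lacked the split of the ACRE hearts, and every CMS7KO heart lay below every ACRE heart, although CMS7KO 2 at 82.4 and ACRE 1 at 83.3 CPM nearly met. With library size alone in place of TMM scaling the groups of Mef2c overlapped, and those of Tbx5 still did not. The log2 fold change of Mef2c was -0.36 (SE 0.16) between means of 92.3 ± 12.2 and 71.8 ± 9.41 CPM (SD, n = 4 each), and it did not pass (edgeR adjusted p = 0.333). It lay between -0.47 and -0.19 in the 20 alternative fits.

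Srf, the MADS-box factor of actin and immediate-early genes (ENSMUSG00000015605, chromosome 17, 46859255 to 46867101, minus strand), measured 59.0, 123, 59.9 and 131 CPM across ACRE hearts 1 to 4, against 66.9, 55.6, 66.9 and 63.5 CPM across CMS7KO hearts 1 to 4. ACRE 2 and 4 stood far above, and the other 6 hearts lay together whatever their genotype. The means were 93.3 ± 39.3 and 63.2 ± 5.34 CPM (SD, n = 4 each), and the log2 fold change was -0.56 (SE 0.28, adjusted p = 0.365 by edgeR).

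Hand2 (ENSMUSG00000038193, chromosome 8, 57774018 to 57777668, plus strand) measured 26.3, 39.6, 25.5 and 25.9 CPM across ACRE hearts 1 to 4, against 37.2, 26.9, 30.6 and 27.7 CPM across CMS7KO hearts 1 to 4. ACRE 2 and CMS7KO 1 were highest, and the groups overlapped, with means of 29.3 ± 6.84 and 30.6 ± 4.68 CPM (SD, n = 4 each) and a log2 fold change of 0.07 (SE 0.18, adjusted p = 0.865 by edgeR). This gene's count is the least certain of the 10, since its partner Hand2os1 overlaps it on the other strand and held 7782 reads in all against 3602. Hand2os1, a noncoding RNA, measured 29.6, 39.4, 33.2 and 106 CPM across ACRE hearts 1 to 4, against 88.3, 71.3, 79.8 and 90.0 CPM across CMS7KO hearts 1 to 4, so it was low in 3 control hearts and high in the rest. Its log2 fold change was 0.75 (edgeR adjusted p = 0.333).

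The direction of most members depended on which control hearts were used. Fits without ACRE 2 and 4, or without ACRE 1 and 3, were added after seeing the data because these libraries stood apart. Each kept only 2 ACRE hearts, picked from a split seen in these same data. Their directions and adjusted p therefore follow in part from that choice and are descriptive. Without ACRE 2 and 4, 8 of 10 fold changes were above 0, with a median of 0.23. Gata4 then stood at 0.65 (edgeR adjusted p = 0.158), Gata6 at 0.29 (0.437) and Mef2a at 0.22 (0.571), and Tbx20 at 0.73 passed (adjusted p = 0.0288), 1 of 10 members beside 0.979% of 17883 genes. Without ACRE 1 and 3 all 10 were below 0, and 6 passed, Tbx5 at -1.75, Tbx20 at -1.20, Gata4 at -1.12, Gata6 at -1.07, Srf at -1.01 and Mef2a at -0.58 (adjusted p = 0.000683 to 0.0177), in a fit that called 25.2% of 17417 genes, 1789 higher and 2600 lower. Tbx5 and Mef2c were the only members below 0 in both of these fits. For Gata4, Gata6, Tbx20 and Mef2a all CMS7KO hearts lay between the 2 ACRE pairs, so the sign in each fit was set by the pair left out. Tbx20 thus passed the threshold in opposite directions in the 2 fits.

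**Figure D3:**
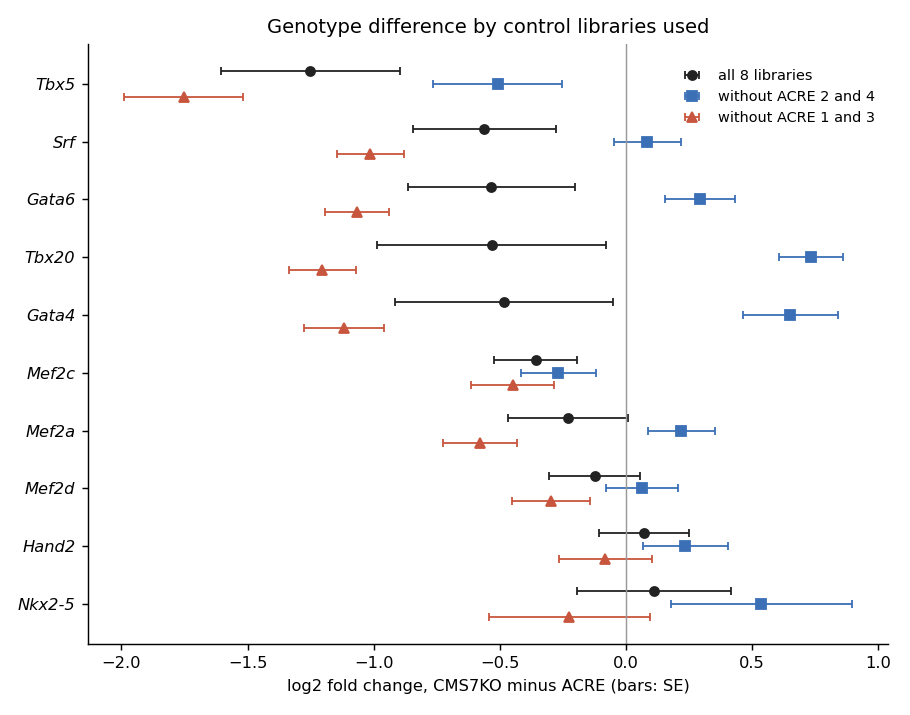
Log2 fold change of each factor, CMS7KO minus ACRE, with its SE, in the fit of all 8 libraries (black) and in fits without ACRE 2 and 4 (blue) or without ACRE 1 and 3 (red). Tbx20 moves from -0.53 to 0.73 and -1.20, while Tbx5 (-1.25, -0.51 and -1.75) and Mef2c stay left of 0.

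ACRE 2 and 4 were above the other 6 libraries for 7 of the 10 members, Gata4, Gata6, Tbx5, Tbx20, Mef2a, Mef2d and Srf, and for 22.5% of all tested genes. With library size alone, 6 members kept this order, all but Mef2d, beside 11.2% of genes. All CMS7KO hearts lay between ACRE 1 and 3 and ACRE 2 and 4 for 4 members, Gata4, Gata6, Tbx20 and Mef2a, and for 1.94% of genes, and the same 4 did so with library size alone (0.852%). Both orders of libraries were read from these same values rather than planned, so the shares beside them are not a test. The 4 members also moved together (Pearson r of log2 levels 0.94 to 0.98) and do not count as separate observations. The members' median coefficient of variation was 37.3% in ACRE and 11.7% in CMS7KO hearts, and 9 of 10 varied more in ACRE. Among 11420 tested genes of mean CPM 5 or more, the medians were 22.2% and 13.4%, and 74.7% varied more in ACRE, so the wider spread of the controls was shared by most genes. Marker levels differed along this split. Of the 12 heart muscle markers, 7 were higher in both ACRE 2 and 4 than in ACRE 1 and 3, and 2 were lower. Their sum in ACRE 1 to 4 was 54362, 71320, 45391 and 88258 CPM, and without Myh6, its largest part, 35534, 38824, 30810 and 44204 CPM. The mean centred log2 level of 10 endothelial markers was -0.79 and -0.43 in ACRE 2 and 4, 0.38 and 0.42 in ACRE 1 and 3, and -0.07 to 0.32 in CMS7KO hearts. The TMM factors of ACRE 2 and 4 were 0.868 and 0.803, the 2 lowest. The part of any of these in the members' levels was not tested.

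Shares within a family do not depend on library scaling. Of the length-scaled level of Tbx5 and Tbx20 together, Tbx5 made up 36.7%, 24.8%, 35.8% and 27.3% in ACRE 1 to 4 and 22.2%, 14.2%, 19.1% and 21.8% in CMS7KO 1 to 4. All CMS7KO hearts lay below all ACRE hearts, with means of 19.3 ± 3.68% and 31.2 ± 6.00% (SD, n = 4 each). The nearest values, 24.8% in ACRE 2 (exact binomial 95% interval 22.8 to 26.9%) and 22.2% in CMS7KO 1 (19.2 to 25.4%), overlapped in counting error. Within the ACRE hearts the share was lower where both genes were high. Gata6 made up 22.9 ± 3.59% of Gata4 and Gata6 in ACRE and 21.1 ± 2.21% in CMS7KO, and these groups overlapped. Of the 3 Mef2 genes together, Mef2d made up 64.6 ± 2.96% and 66.5 ± 2.89%, Mef2a 24.5 ± 3.61% and 24.1 ± 1.57%, and Mef2c 10.8 ± 1.37% and 9.44 ± 1.70% in ACRE and CMS7KO. None of the Mef2 shares separated the genotypes.

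**Figure D4:**
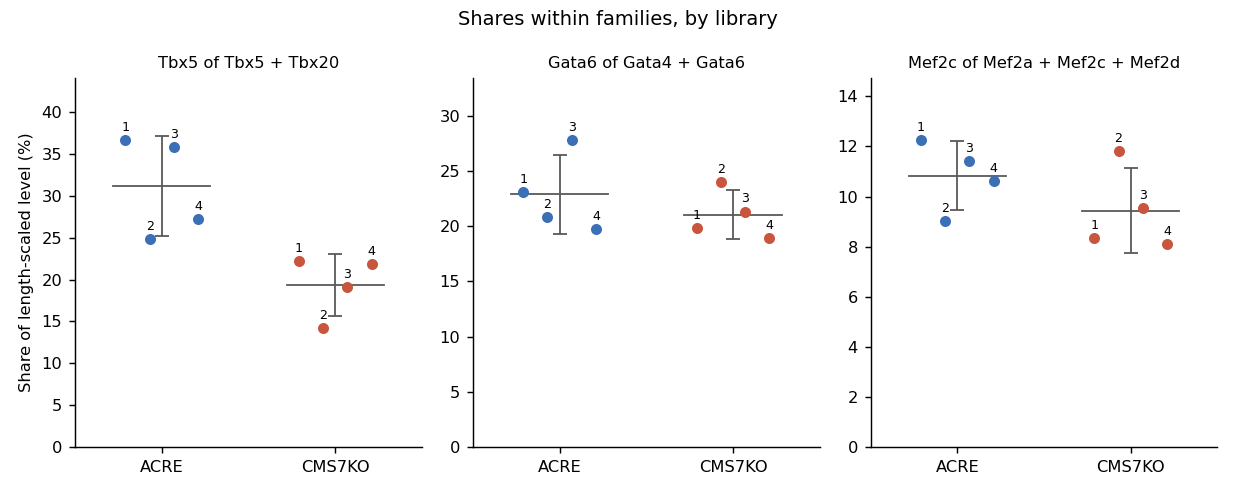
Share (%) of Tbx5, Gata6 and Mef2c in the summed length-scaled level of their family, 1 numbered point per library, with the mean and SD of ACRE (blue) and CMS7KO (red) hearts (n = 4). The share of Tbx5 is 24.8 to 36.7% in ACRE and 14.2 to 22.2% in CMS7KO hearts, while the other 2 shares overlap.

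Across the 8 libraries, log2 levels of the 45 pairs of members had a median Pearson r of 0.63, from -0.38 to 0.98, and 11 pairs exceeded 0.9. These values are descriptive, since the points share library composition and scaling, and with library size alone the median was 0.16. Gata4, Gata6, Tbx20, Mef2a and Srf formed the tightest set, led by Tbx20 with Mef2a and Gata6 with Srf at 0.98 each. Under TMM scaling, Mef2c with Hand2 (-0.38) and with Nkx2-5 (-0.29) were the only pairs of negative Pearson r. With library size alone these were at -0.44 and -0.91, so that Mef2c and Nkx2-5 became the least alike. Other pairs were then negative too, such as Gata4 with Mef2c (-0.43) and Tbx5 with Hand2 (-0.42). By Pearson r under TMM scaling Tbx5 was most like Srf (0.91) and less like its family member Tbx20 (0.70). By Spearman correlation, which uses ranks, Tbx5 was instead most like Mef2c (0.76), with 0.62 for Srf and 0.36 for Tbx20.

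**Figure D5:**
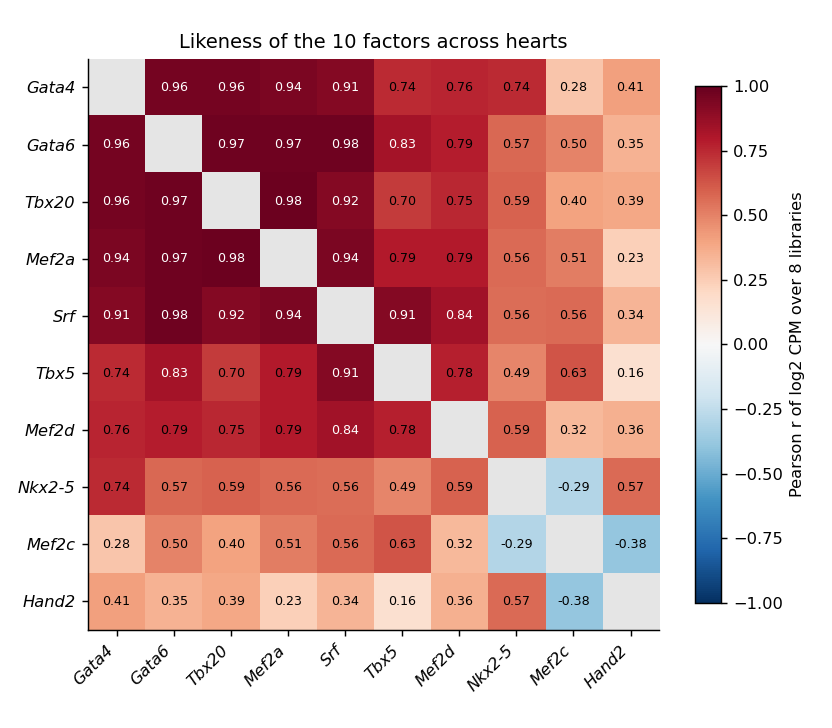
Pearson r of log2 CPM over the 8 libraries for each pair of the 10 factors, red for positive and blue for negative values. Gata4, Gata6, Tbx20, Mef2a and Srf form a block above 0.9, while Mef2c with Hand2 (-0.38) and Nkx2-5 (-0.29) are the only negative pairs under this scaling.

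Among 10658 protein-coding genes searched for a like pattern over the 8 libraries, Srf had the most followers, with 636 genes at r over 0.95, led by Nmd3 and Osbp (0.996 each). Tbx5 had 361, led by Ppat (0.996) and Rbm24 (0.993), an RNA-binding protein of heart and skeletal muscle, and Gata6 had 352, led by Hsd17b7 (0.994) and Mtmr3 (0.993). Gata4 was most like Lbh (0.996). Mef2a was most like Slc41a1 (0.997) and Laptm4a (0.994), and Tbx20 most like Eif2ak1 (0.989) and Ldah (0.987). The remaining members had few followers at this level. There were 8 genes for Mef2c, led by Trim33 (0.985) and Zfp654 (0.975), 6 for Mef2d, led by Tmcc2 (0.975) and Hebp1 (0.961), 3 for Nkx2-5, led by Fth1 (0.977) and Flad1 (0.972), and 1 for Hand2, Sugt1 (0.952), with Slc37a4 (0.933) next. The named genes are the highest of all those searched, over only 8 libraries and under TMM scaling, so their values are descriptive. Spearman correlations of the named pairs were from 0.83 (Tbx20 with Eif2ak1) to 1.00 (Gata4 with Lbh). ACRE 2 and 4 were above the other 6 libraries for 22.5% of all tested genes. The part of that split in these values was not tested.

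Relatives and partners of the factors were read from lists of pathway genes, and none of the listed genes passed the adjusted threshold by edgeR, nor by DESeq2 in these lists. At an unadjusted p under 0.05 there were 0 relatives, 3 cofactors and 1 gene of the deacetylase and kinase list, of 8, 29 and 11 tested. The share of all genes was 15.3%. All CMS7KO hearts lay above all ACRE hearts for 1 cofactor and below for 1, and for 0 genes of the remaining lists. Of all genes, 9.59% separated in either direction. The genes whose levels follow are the 2 of smallest p in each list by edgeR, so they are its extremes. Of 16 relatives from the same families, only 8 had enough reads to be tested, and Gata5 and Hand1 were among those that did not. The 2 with the smallest p, Tbx1 (0.707 ± 0.445 CPM in ACRE and 1.55 ± 0.824 CPM in CMS7KO, n = 4 each) and Mef2b (0.542 ± 0.305 and 0.207 ± 0.206 CPM), were at low levels. Of 29 tested cofactors, 11 fold changes were above 0 and 18 below (median -0.13). Without ACRE 2 and 4 there were 19 above and 10 below (median 0.11), and without ACRE 1 and 3 there were 10 above and 19 below (median -0.37). Zfpm1, a zinc finger partner of GATA factors, measured 26.4, 23.4, 21.3 and 22.3 CPM across ACRE hearts 1 to 4, against 32.8, 30.8, 32.4 and 36.3 CPM across CMS7KO hearts 1 to 4. All CMS7KO hearts were above all ACRE hearts without a split of the controls, at a log2 fold change of 0.50 (SE 0.14, adjusted p = 0.226 by edgeR). Nfatc4, a calcineurin-driven partner of Gata4, was at 11.6 ± 3.59 and 17.6 ± 2.53 CPM (0.60, adjusted p = 0.312). Among 11 class IIa histone deacetylases and kinases of the Mef2 pathway the median was -0.01. Hdac9, a repressor of Mef2 proteins, was at 34.3 ± 4.92 and 26.8 ± 2.35 CPM (-0.35, adjusted p = 0.325), and Mapk7, a kinase that activates Mef2c, at 17.9 ± 5.81 and 26.8 ± 5.94 CPM (0.58, adjusted p = 0.328).

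Target genes of the factors were grouped by the family known to drive them, and again none passed by edgeR. At an unadjusted p under 0.05 there were 4 targets of GATA, Nkx2-5 and T-box factors, 5 of Mef2 and 5 of Srf, of 14, 16 and 20 tested, beside 15.3% of all genes. DESeq2 called 1 in each list, beside 2.88% of all genes. All CMS7KO hearts lay above all ACRE hearts for 1, 0 and 2 genes of these lists, and below for 1 in each. Of all genes, 9.59% separated in either direction. The genes whose levels follow are the 2 of smallest p in each list by edgeR, so they are its extremes. All 16 Mef2 targets had fold changes below 0, with a median of -0.78 beside -0.01 over all genes. Without ACRE 2 and 4 the count was 10 below and 6 above with a median of -0.09. Without ACRE 1 and 3 it was 15 below and 1 above with a median of -1.22. All 12 heart muscle markers stood below 0 in the fit of 8 libraries too, and Ckm is in both lists. Nexn, a Z-disc protein, measured 377, 473, 347 and 714 CPM across ACRE hearts 1 to 4, against 272, 237, 239.9 and 252 CPM across CMS7KO hearts 1 to 4. Its groups did not overlap (log2 fold change -0.92, SE 0.25, edgeR adjusted p = 0.222). Ppargc1a, the coactivator of mitochondrial biogenesis, was at 90.8 ± 58.4 and 40.7 ± 5.58 CPM (-1.13, adjusted p = 0.282). Of 14 tested targets of GATA, Nkx2-5 and T-box factors, 3 were above 0 and 11 below (median -0.29). The median was 0.36 without ACRE 2 and 4 and -0.71 without ACRE 1 and 3. Nppa, the atrial natriuretic peptide, measured 486, 689, 249 and 203 CPM across ACRE hearts 1 to 4, against 1065, 1514, 1117 and 487 CPM across CMS7KO hearts 1 to 4, where CMS7KO 4 overlapped the controls (log2 fold change 1.48, SE 0.32, adjusted p = 0.187). Corin, the protease that activates this peptide, was at 170.0 ± 96.3 and 82.0 ± 6.07 CPM (-1.03, edgeR adjusted p = 0.281), and neither Corin nor Nppa passed. The 20 Srf targets had a median of 0.02, with 11 above 0 and 9 below. Fos, an immediate-early gene, measured 9.59, 24.2, 23.6 and 56.3 CPM across ACRE hearts 1 to 4, against 3.12, 5.09, 6.13 and 7.92 CPM across CMS7KO hearts 1 to 4, groups that did not overlap (log2 fold change -2.27, SE 0.38, adjusted p = 0.150). Myl9, a smooth muscle myosin light chain, was at 66.8 ± 24.5 and 119 ± 20.7 CPM (0.84, adjusted p = 0.269).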

How the data were processed

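RNA was measured in 8 hearts, 4 per genotype. The authors deposited raw read counts per gene, 1 column per heart; HTSeq 0.6.1, TopHat2 2.0, Cufflinks 2.1.1 and CASAVA, and the builds GRCm38.p6 and mm10, appear without roles in the submitters' processing notes. Gene lengths in bases, deposited in the same table, served only to scale levels between genes. How strand was handled, and which annotation was used, is not stated in the labels or headers. The members and lists were chosen with earlier results of these data known.

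The filterByExpr rule, applied to the 4 genotype and sex label classes, left 16780 of 32514 genes with reads. Genotype was tested with edgeR 4.0.16 in R 4.3.3 by its robust quasi-likelihood F test, with TMM scaling and a term for the sex label (5 residual degrees of freedom, biological coefficient of variation 30.3%). Adjustment ran over all tested genes by Benjamini-Hochberg with a threshold of 0.05. The interaction was tested in a fit of these 4 classes, with 2 libraries in each. Alternatives included limma 3.58.1 voom and DESeq2 1.42.0. Correlations used log2 CPM with a prior count of 2. Marker scores are means of log2 CPM after centring each gene. Named genes were all members, Smad7, the 2 genes of smallest p in each pathway list, since none in them passed, and the 2 genes most like each member among protein-coding genes of mean CPM 5 or more. Predicted, Rik and ribosomal genes were left out of that search, and 1 gene it found is not reported here. The edgeR fit was also run on simulated counts with a common dispersion and no split of the ACRE hearts. That run cannot show how the fit behaves on hearts that split. No library pair agreed within sampling noise (lowest chi-square per degree of freedom 17.5). Intervals cover counting error only.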

Additional observations from a re-analysis of the deposited data

Results flagged for a closer look

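Hand2 in ACRE hearts was flagged because ACRE 2, at 39.6 CPM, lay far above the other 3 controls, at 25.5 to 26.3 CPM. Its gap to the next heart took up more of the group's range than Dixon's 95% critical value for 4 samples. Of 20 groups of 4 hearts examined, 10 members in 2 genotypes, this was the only 1 flagged, and chance flags about 1 in 20. Hand2os1, on the other strand of the same locus, was at 39.4 CPM in ACRE 2, between the 33.2 CPM of ACRE 3 and the 106 CPM of ACRE 4. No cause was tested.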

How the results depend on the processing

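The 3 fits that left libraries out together were added after seeing the data. Counts are genes higher and lower for genotype with 0.05 as threshold, 3 and 3 with all libraries. Without a filter on low counts there were 456 and 912 with 1 member, where the median prior degrees of freedom were infinite against 4.50. With a mean of at least 10 CPM there were 0 and 0 (1435 at an unadjusted p under 0.05), with DESeq2 278 and 206 with 1 member, and without the sex label 5 lower. Without ACRE 2 and 4 there were 86 and 89 with 1 member, without ACRE 1 and 3 there were 1789 and 2600 with 6 members, and without ACRE 3 and CMS7KO 3 there were 0 and 1. Leaving out each library gave 0 to 10 higher and 0 to 7 lower by edgeR (1487 to 3768 at an unadjusted p under 0.05), with no member called. Without a filter the sex label gave 51 higher and 19 lower and the interaction 3 and 5, and DESeq2 gave 2 and 1 for the interaction. Without ACRE 2 and 4, Gata4 (0.65), Gata6 (0.29), Tbx20 (0.73), Mef2a (0.22), Mef2d (0.064) and Srf (0.085) changed sign. Without ACRE 1 and 3, Nkx2-5 (-0.23) and Hand2 (-0.082) did, and with library size alone, which moves the median of all genes to 0.14, Mef2d did (0.050). With each library left out, Nkx2-5 ranged from -0.15 to 0.32 and Hand2 from -0.020 to 0.22. Tbx5 and Mef2c kept their sign in all 20 alternatives, and Tbx5 passed in 3 of them, without a filter (5.23e-05), with DESeq2 (0.0347) and without ACRE 1 and 3 (0.00119). The median r of the 45 pairs was 0.16 with library size alone. The causes were not tested. Hearts share only a number between groups, with correlations of same-numbered deviations from -0.19 to 0.20, and the replicate block gave 1 higher and 2 lower genes and no member. At 107 to 352 reads per library, Tbx5 had the thinnest counts of the members.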
